A study of Mus musculus with 7 samples.

Results

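The 10 genes described here encode paired immune receptors of the SIRP, CD300 and Siglec families that were chosen by name, 10 of the 28692 genes in the count tables, and each had a row in all count files. They were Sirpa, the 4 SIRPβ genes Sirpb1a, Sirpb1b, Sirpb1c and Gm5150, the 4 CD300 genes Cd300lf, Cd300ld, Cd300lb and Cd300a, and Cd33. Their levels were read in neutrophils of C57BL/6J male mice, sorted as live CD11b+ Ly6G+ cells and captured with the 10X droplet platform. A UMI (unique molecular identifier) marks 1 captured RNA molecule, and levels are given as UMIs per 1000000 UMIs of all genes (CPM), over all neutrophils of a library or condition.

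Each of 2 runs gave 1 library of healthy blood, 1 of bone marrow and 1 of spleen neutrophils. Donor mice were aged 6 weeks in run 1 and 8 weeks in run 2. A library pooled 3 mice, and 1 set of mice supplied all tissues within a run. A separate inflammation library held 5 conditions marked with hashtag oligomers, from mice of 8 weeks: healthy blood, blood and joint lavage in K/BxN serum transfer arthritis, and lavages after IL-1β. Arthritic mice received 150 µl of serum into the peritoneum on day 0 and day 2 and were harvested on day 7. IL-1β was given as 25 ng for 3 h, either into the peritoneum (peritonitis, peritoneal lavage) or through the nose (pneumonitis, lung lavage). No gene was altered in any group. Each condition was 1 pool, so that comparisons inside this library have no replicate check, and serum and IL-1β conditions differ in agent and time at once, and the lung also in route. The CD11b+ Ly6G+ gate also fixes which cells could be seen.

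Paired receptors are sets of closely related surface proteins of which some inhibit and others activate the cell. The inhibitory members carry cytoplasmic tyrosine motifs that bind the phosphatases SHP-1 and SHP-2, whereas the activating members have short tails and signal through adaptors such as DAP12 or the Fc receptor γ chain to the kinase Syk. SIRPα binds CD47, a "do not eat me" protein on most cells, CD300 receptors bind lipids exposed on dying or activated cells, and Siglecs bind sialic acids.

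The SIRPβ genes lie side by side within chr3:15371653-16006437 of mm10, a stretch of 635 kb, and the CD300 genes within chr11:114890041-115133992, a stretch of 244 kb. All 10 genes were annotated as protein coding. Promoter sequences of 9 of the 10 were matched in RefSeq (GRCm38.p6), each 250 bases before the gene start and 50 after it, and Sirpa was not matched. The stretch below, upstream of the gene start and on the minus strand, is shown since it was common to all 4 SIRPβ genes. Capitals mark the bases that differ from Sirpb1b.
Sirpb1b (chr3:15575077-15575209): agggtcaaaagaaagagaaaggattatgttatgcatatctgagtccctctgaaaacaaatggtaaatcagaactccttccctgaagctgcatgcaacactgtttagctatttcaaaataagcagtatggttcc
Sirpb1c (chr3:15848540-15848672): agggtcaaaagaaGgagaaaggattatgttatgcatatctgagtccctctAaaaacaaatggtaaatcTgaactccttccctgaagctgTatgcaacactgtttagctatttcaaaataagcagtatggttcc
Sirpb1a (chr3:15426532-15426664): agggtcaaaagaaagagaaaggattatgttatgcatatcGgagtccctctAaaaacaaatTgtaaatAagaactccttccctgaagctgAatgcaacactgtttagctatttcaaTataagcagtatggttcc
Gm5150 (chr3:16006449-16006582): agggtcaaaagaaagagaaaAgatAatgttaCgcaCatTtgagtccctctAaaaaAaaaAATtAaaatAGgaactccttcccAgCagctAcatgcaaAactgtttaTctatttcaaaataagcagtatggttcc

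Relative to Sirpb1b the stretch was identical at 97.0% of aligned bases in Sirpb1c, 95.5% in Sirpb1a and 86.6% in Gm5150. The likeness also reached the RNA ends that were sequenced. Of 96-base windows in the last 500 bases of the coding transcripts, 38.8% for Sirpb1a, 55.0% for Sirpb1b and 36.6% for Sirpb1c were found in another of these 3 genes, against 0% for the other 7 genes. How UMIs were divided among Sirpb1a, Sirpb1b and Sirpb1c is therefore uncertain, and the sum of these 3 genes is given as well. Whether reads shared by these genes were counted at all was not tested, so that the sum may miss some.

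The sequences 250 bases upstream of Cd300lf (chr11:115133993-115134242, minus strand) and Cd33 (chr7:43533172-43533421, minus strand) are shown because these genes stood furthest above healthy blood in the lung. The Cd33 stretch precedes the RefSeq start, which lies 11257 bases inside the GENCODE gene, since 1 longer transcript there starts upstream. Capitals mark GAGGAA, the core of sites bound by the myeloid factor PU.1, read on either strand.
Cd300lf: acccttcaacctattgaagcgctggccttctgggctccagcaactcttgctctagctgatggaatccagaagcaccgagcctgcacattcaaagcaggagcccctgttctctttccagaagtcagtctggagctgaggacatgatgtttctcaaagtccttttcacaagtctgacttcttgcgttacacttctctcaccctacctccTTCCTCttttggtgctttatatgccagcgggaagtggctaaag
Cd33: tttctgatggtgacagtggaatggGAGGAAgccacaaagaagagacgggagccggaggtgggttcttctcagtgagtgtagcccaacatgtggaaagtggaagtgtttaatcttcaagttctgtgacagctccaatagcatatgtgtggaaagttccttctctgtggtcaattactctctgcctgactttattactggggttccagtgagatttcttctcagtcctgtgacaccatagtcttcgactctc

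GAGGAA was present in the promoters of Cd300lf, Cd300ld, Cd300a and Cd33 (4 of 9), compared with 23.3% of 32851 promoters of the same length. TTNCNNAA, a half-specified form of the sites bound by C/EBP factors, was present on either strand in 6 of 9 against 36.8% of all promoters. These are matches of letters only.

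The healthy libraries held 12755 neutrophils of 16907 cells, counting cells in which S100a8 and S100a9 made up at least 3% of UMIs, and the inflammation library held 4852 of 4856 with an ImmGen granulocyte label. The neutrophils of a pool summed to 942688 to 10293966 UMIs. All 9 neutrophil markers were detected in every pool, at 154641 to 393014 CPM in sum. S100a8 and S100a9, by which the healthy cells were chosen, are among them and gave most of the sum in the healthy libraries. The sum is thus no separate check of that choice. The spleen libraries of the 2 runs were unlike: 93.1% and 46.2% of cells passed as neutrophils in runs 1 and 2, and 45.0% and 3.28% of those were rich in granule RNA as defined below. Of 12 monocyte and macrophage markers, 0 to 5 per pool were at 0. Their sum was 269 to 1393 CPM, mostly Ly6c2 and Csf1r, and without these it was 29.8 to 56.7 CPM except for 167 CPM in the peritoneum, of which Adgre1 gave 157. B cell markers summed to 807 CPM in spleen of run 2 and to 3.77 to 303 CPM elsewhere, and erythroid markers to 30345 CPM in blood of run 2 and to 0.757 to 912 CPM elsewhere. Pairs of libraries shared 0 to 36 cell barcodes.

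Blood neutrophils were compared with bone marrow neutrophils to ask how the receptors differ between the site of production and the circulation. Of the 10 receptor genes, 9 were higher in blood at a false discovery rate (FDR) of 0.05, and Cd33 did not pass. The SIRPβ genes differed most, at 7.57-fold to 11.3-fold, followed by Cd300ld at 5.32-fold and Cd300a at 3.59-fold. Across all 7809 genes tested, 917 (11.7%) were higher in blood and 776 (9.94%) were lower. The median log2 fold change of the 10 genes was 2.13, against -0.02 over all genes. For all 10 genes both blood libraries lay above both bone marrow libraries, a separation that 42.3% of the 7809 genes also had.

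**Figure D1:**
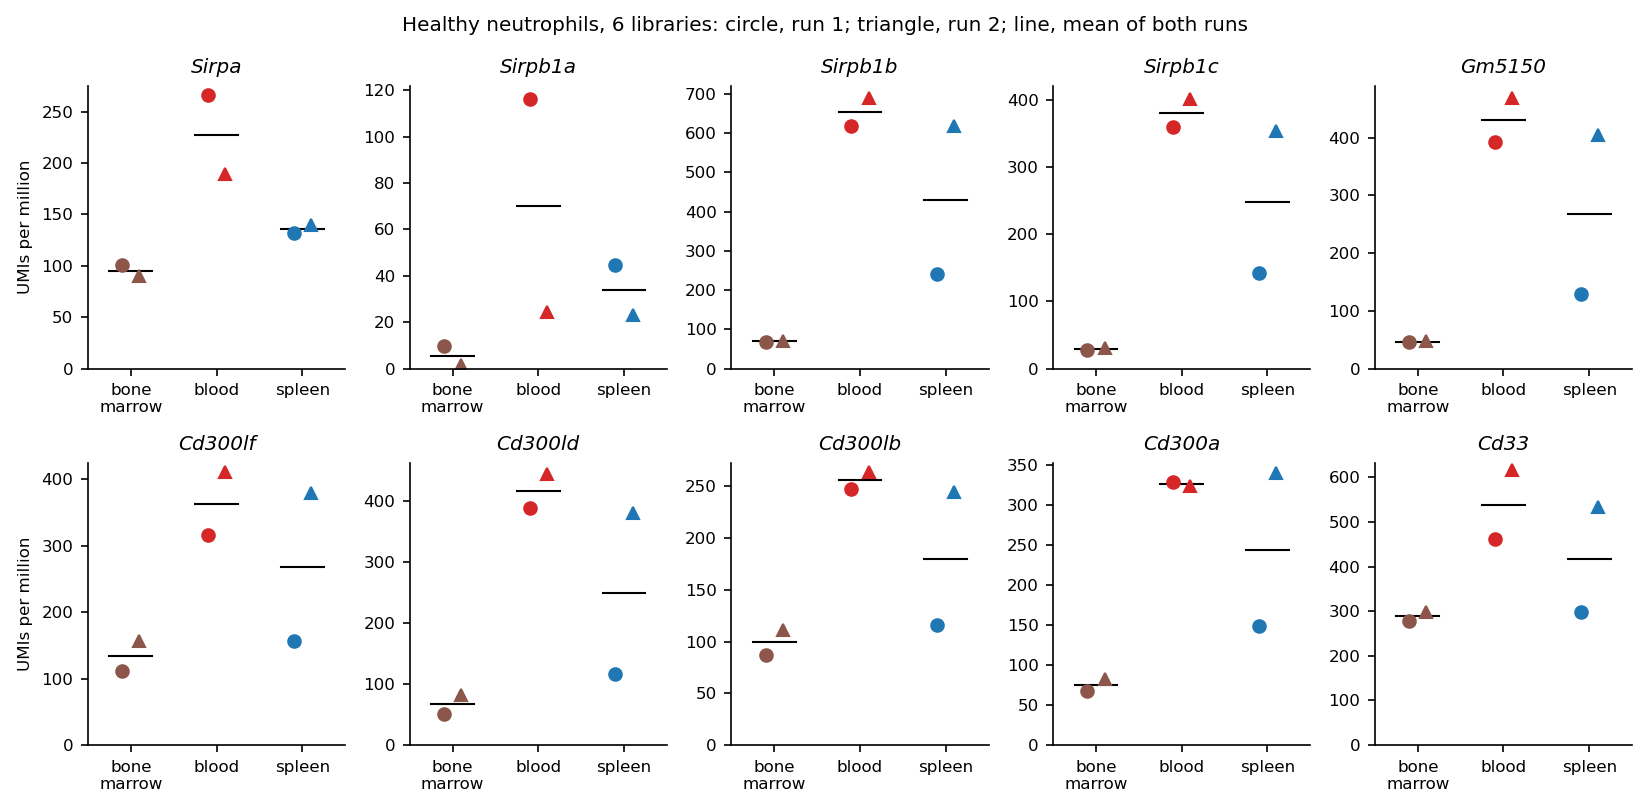
CPM (vertical axis, linear, from 0) of each receptor gene in the 6 healthy libraries, with circles for run 1, triangles for run 2 and a line at the mean of both runs. Each gene was higher in both blood libraries than in both bone marrow libraries, as were 42.3% of all genes tested, and the 2 spleen libraries lay far apart for most genes, for example 241 and 618 CPM for Sirpb1b.

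Among the inhibitory receptors, Sirpa, the CD47 receptor, stood at 100.3 and 90.3 CPM in the bone marrow libraries of runs 1 and 2, at 266 and 189 in those of blood and at 132 and 139.5 in those of spleen. Cd300a, whose protein carries inhibitory tyrosine motifs, stood at 67.6 and 83.0 CPM in bone marrow, 329 and 324 in blood and, in spleen, at 149 and 339.9. Cd300lf, an inhibitory receptor for lipids such as phosphatidylserine and ceramide, stood at 112 and 157 CPM in bone marrow, 316 and 410.5 in blood and, in spleen, at 157 and 379. For all 3 genes both blood libraries lay above both bone marrow libraries, as for 42.3% of all genes tested, and spleen of run 1 lay nearest to bone marrow. The log2 fold change from bone marrow to blood was 0.95 (SE 0.21, FDR 0.021) for Sirpa, 1.84 (SE 0.25, FDR 0.0050) for Cd300a and 1.16 (SE 0.22, FDR 0.012) for Cd300lf by edgeR's quasi-likelihood test.

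Among the SIRPβ genes, whose proteins pair with DAP12, Sirpb1b gave the most UMIs, at 68.5 and 71.4 CPM in bone marrow, 619 and 689 in blood and, in spleen, at 241 and 618. Sirpb1c stood at 27.3 and 30.8 CPM in bone marrow, 359.5 and 402 in blood and, in spleen, at 142 and 353. Gm5150, a SIRPβ-like gene of the same cluster, stood at 45.2 and 47.5 CPM in bone marrow, 392 and 468 in blood and, in spleen, at 128 and 405. These 3 genes had the same pattern, low and nearly equal in the bone marrow libraries, high and nearly equal in the blood libraries, and split in spleen. Their log2 fold changes from bone marrow to blood were 2.94 (SE 0.28, FDR 0.0023) for Sirpb1b, 3.43 (SE 0.27, FDR 0.0019) for Sirpb1c and 2.92 (SE 0.31, FDR 0.0028) for Gm5150.

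Sirpb1a was the lowest of the cluster and differed between runs, with 9.65 and 1.32 CPM in bone marrow, 116 and 24.4 in blood and, in spleen, at 44.7 and 23.0. Run 1 was the higher run in every tissue. Sirpb1a made up 6.41% to 8.03% of SIRPβ UMIs in run 1 and 0.873% to 2.52% in the pools of run 2 and of the inflammation experiment, and the runs also differed in the Cell Ranger version, so that the age of the mice, the version and other properties of a run cannot be told apart. Its log2 fold change from bone marrow to blood was 3.50 (SE 0.36, FDR 0.0025). The 4 SIRPβ genes summed to 151 CPM in both bone marrow libraries, to 1487 and 1583 in blood and to 556 and 1399.5 in the spleen libraries. Without Gm5150, the other 3 summed to 105.5 and 103.5 CPM in bone marrow of runs 1 and 2, to 1095 and 1115 in the blood libraries and to 428 and 994 in those of spleen.

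Of the activating CD300 receptors, Cd300ld, which signals through the Fc receptor γ chain, stood at 51.6 and 81.2 CPM in bone marrow, 388 and 443 in blood and, in spleen, at 117 and 380.3. Cd300lb, which pairs with DAP12, stood at 87.1 and 112 CPM in bone marrow, 248 and 264 in blood and, in spleen, at 116 and 245. Neither gene overlapped between bone marrow and blood, where 42.3% of all genes tested also had both blood libraries above both bone marrow libraries. The log2 fold change was 2.41 (SE 0.29, FDR 0.0039) for Cd300ld and 1.09 (SE 0.22, FDR 0.016) for Cd300lb. Cd33, the Siglec of the set, was the gene with the most UMIs in bone marrow, at 279.0 and 298 CPM, and it stood at 461 and 616 CPM in the blood libraries and at 299 and 533 CPM in the spleen libraries. The blood libraries of Cd33 also lay above the bone marrow libraries, but the log2 fold change of 0.60 (SE 0.21, FDR 0.088) did not pass.

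On the scale of UMIs per cell the receptors parted into 2 groups. Sirpb1a, Sirpb1b, Sirpb1c, Gm5150, Cd300ld and Cd300a gave more UMIs per cell in blood than in bone marrow in both runs, for example 0.645 and 0.653 against 0.241 and 0.190 for Sirpb1b. Sirpa, Cd300lf, Cd300lb and Cd33 gave fewer, for example 0.277 and 0.179 in blood against 0.353 and 0.240 in bone marrow for Sirpa and 0.480 and 0.584 against 0.983 and 0.792 for Cd33. For these 4 genes the direction thus depends on the scale. Blood neutrophils gave fewer UMIs of all genes, with a median of 809.5 and 826 UMIs per cell in runs 1 and 2 against 2698.5 and 2133.5 in bone marrow, and spleen neutrophils gave a median of 1355 and 775. RNA content and the capture of each library cannot be told apart in these values.

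The share of cells with a UMI, after thinning each cell to 500 UMIs, followed the CPM. At least 1 UMI of any of the 10 genes was found in 39.1% and 44.8% of bone marrow neutrophils in runs 1 and 2, in 80.2% and 84.7% of blood neutrophils and in 59.2% and 81.8% of spleen neutrophils. Before thinning these shares were 88.7% to 95.2%. In the same spleen library of run 2, B-like cells (1265 cells, median 1409 UMIs) reached 6.17% and T-like cells (273 cells, median 1800 UMIs) 3.66%, a level that free RNA in droplets can give, and the 10 genes stood at 1.97 to 30.5 CPM in these cells. For blood of run 1, 26 cells under 500 UMIs were left out.

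These calls rest on 2 libraries per tissue, and on each blood library. Without blood of run 2, 0 genes of all those tested were called (2025 at an unadjusted p under 0.05) and thus 0 receptor genes, and without blood of run 1 only Sirpb1c among 57 genes. Without the run as a block, 2 receptor genes (Sirpb1b and Sirpb1c) among 164 genes were called. In all 60 values with 1 library left out, the log2 fold change from bone marrow to blood stayed above 0.

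Spleen was compared with bone marrow and with blood. Relative to bone marrow, 6 receptor genes were higher in spleen, among 175 of 7809 genes higher (2.24%) and 40 lower (0.512%). They were Sirpb1a (log2 fold change 2.86, FDR 0.018), Sirpb1c (2.80, FDR 0.012), Sirpb1b (2.32, FDR 0.016), Gm5150 (2.17, FDR 0.025), Cd300ld (1.57, FDR 0.038) and Cd300a (1.44, FDR 0.031). Cd300ld and Cd300a no longer passed with a stricter cell filter, nor did Cd300a with neutrophils defined at 10% S100a8 and S100a9. The others ranged from 0.30 for Cd33 to 0.73 for Cd300lf and did not pass. The median of the 10 was 1.502, against -0.01 over all genes.

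Within run 1, Sirpb1b was 3.52-fold higher in spleen than in bone marrow, and within run 2 it was 8.66-fold higher. For Cd33 the same ratios were 1.07 and 1.79. The larger ratio came from run 2 for all 10 genes, and run 2 was also the run whose spleen neutrophils were poor in granule RNA. Without the run as a block no receptor gene and none of the 7809 genes passed between spleen and bone marrow (0 called, 663 at an unadjusted p under 0.05). Leaving out spleen of run 1 gave 8 receptor genes among 1250 genes, and leaving out spleen of run 2 gave 4 among 57. Leaving out either blood library gave 0.

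Between spleen and blood no receptor gene passed, with 0 genes higher and 4 lower of 7809 (0.0512%) by edgeR, 801 genes at an unadjusted p under 0.05 and 29 by DESeq2. The log2 fold changes of the 10 genes were all below 0, with a median of -0.61 against 0.02 over all genes. These signs depend on the cells counted: in granule-poor cells the values of Sirpb1a (0.15), Sirpb1b (0.0975), Sirpb1c (0.0935) and Cd300a (0.19) were above 0, and without cells holding monocyte UMIs those of Sirpb1a (0.0682), Sirpb1c (0.0011) and Cd300a (0.0968) were. The latter setting kept 652 of 1135 and 1905 of 2010 spleen neutrophils in runs 1 and 2. In blood it kept 1141 of 1306 and 3525 of 3672. Cd300ld had the largest difference at -0.84 (SE 0.28, FDR 0.44). In run 1 spleen lay 1.54-fold to 3.32-fold below blood, and in run 2 the ratio of blood to spleen was 0.95 to 1.36. Without spleen of run 2, Gm5150 was the 1 receptor gene that passed (lower in spleen), where 2.23% of 8443 genes were higher and 0.403% lower.

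To relate the receptors to maturation, healthy neutrophils were divided within each library by the RNA of 4 secondary granule genes, Camp, Ngp, Ltf and Lcn2, which are transcribed in immature neutrophils of the bone marrow. Cells with at least 2% of UMIs from these genes are called granule-rich. In runs 1 and 2 they were 65.6% and 50.1% of bone marrow neutrophils, 11.6% and 1.03% of blood neutrophils and 45.0% and 3.28% of spleen neutrophils. In all 6 libraries, each of the 10 receptor genes was lower in granule-rich than in granule-poor cells, as were 33.5% of the genes tested.

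All 9 receptor genes that passed the filter on low counts were lower in granule-rich cells, with Sirpb1a not tested. Over all 5423 genes tested, 1235 (22.8%) were lower and 1197 (22.1%) higher. The median log2 fold change of the 9 was -2.26, against 0.02 over all genes. The 6 libraries came from 2 sets of pooled mice, so that the FDR values do not stand for 6 independent sets of mice. The sizes spanned a wide range. Sirpb1c differed by -4.49 (SE 0.35, FDR 2.9e-07), Sirpb1b by -4.40 (SE 0.28, FDR 5.9e-08) and Gm5150 by -3.83 (SE 0.22, FDR 2.4e-08), whereas Cd33 differed by -0.73 (SE 0.12, FDR 0.00022) and Cd300lf by -0.96 (SE 0.13, FDR 3.1e-05). Between them lay Cd300ld (-2.87), Cd300a (-2.26), Cd300lb (-1.59) and Sirpa (-1.08).

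In granule-rich cells Sirpb1b stood at 8.89 to 39.9 CPM over the 6 libraries, and in granule-poor cells at 201 to 952 CPM. The classes did not overlap, as for 16.6% of all genes tested in this direction. Cd33 stood at 226 to 311 CPM in granule-rich cells and at 446 to 628 CPM in granule-poor cells, also without overlap, and was thus the receptor with the most UMIs in the granule-rich class. Sirpb1a gave 0 UMIs in the granule-rich cells of blood of run 1, blood of run 2 and spleen of run 2, where a count of 0 allows up to 8.34, 23.96 and 11.7 CPM (3 counts per library), and at most 2.63 CPM in the other libraries, against 3.52 to 179.8 CPM in granule-poor cells. Sirpb1c also gave 0 UMIs in the granule-rich cells of spleen of run 2, with the same floor of 11.7 CPM. Sirpb1b at 19.5 CPM in the granule-rich cells of spleen of run 2 was within the 17.7 and 30.5 CPM of T-like and B-like cells of that library, so that the low level there cannot be told apart from free RNA and the fitted differences of the SIRPβ genes carry this limit. Cd300ld carries it too, at 23.4 CPM in these granule-rich cells against 20.6 CPM (15.0 to 27.7) in B-like cells. Granule-rich cells gave more UMIs of all genes, for example a median of 3519 UMIs per cell against 1731 in bone marrow of run 1. Per cell, the SIRPβ genes, Cd300ld and Cd300a gave fewer UMIs in granule-rich cells in 6 of 6 libraries and Cd300lb in 5 of 6. Cd33 gave more in 6 of 6, for example 1.03 against 0.884 in bone marrow of run 1, Cd300lf in 5 of 6 and Sirpa in 4 of 6, so that the direction of these 3 genes depends on the scale.

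**Figure D2:**
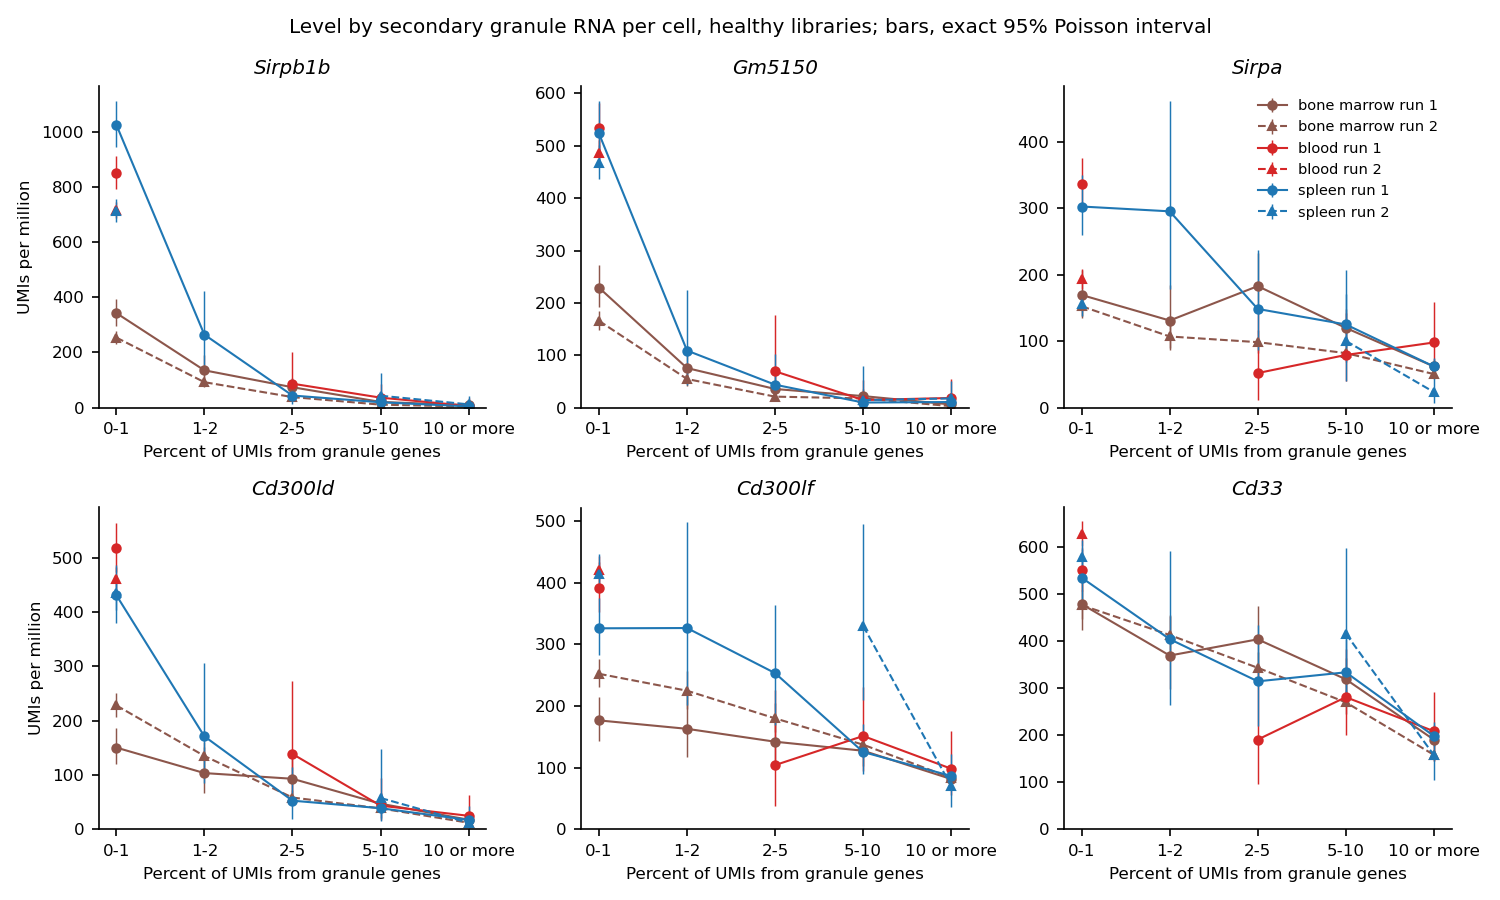
CPM (vertical axis, linear) of 6 receptor genes in healthy neutrophils binned by the percent of UMIs from Camp, Ngp, Ltf and Lcn2 (horizontal axis), with 1 line per library and exact 95% Poisson intervals. Bins under 20 cells are left out, and a line breaks there. In bone marrow of run 1 Sirpb1b stood at 343 CPM under 1% and at 8.43 CPM at 10% or more, and Cd300ld at 150.4 and 17.3 CPM, whereas Cd33 stood at 157 to 208 CPM at 10% or more over the libraries shown.

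Along finer bins of granule RNA in bone marrow of run 1, Sirpb1b stood at 343 CPM in cells with under 1% granule RNA, 135 at 1% to 2%, 73.7 at 2% to 5%, 20.5 at 5% to 10% and 8.43 at 10% or more. Cd33 in the same bins stood at 479, 369.6, 404, 319 and 190.4 CPM. The level of Sirpb1b at under 1% granule RNA was still lower in bone marrow, at 343 and 254 CPM in runs 1 and 2, than in blood, at 851 and 716, or spleen, at 1026 and 714.

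This remaining difference between tissues was tested in granule-poor cells only. Sirpb1a, Sirpb1b, Sirpb1c, Gm5150, Cd300ld and Cd300a remained higher in blood than in bone marrow, with log2 fold changes of 1.95, 1.34, 1.88, 1.36, 1.16 and 0.83 and FDR values up to 0.016 for these, where 7.32% of 6068 genes were higher and 6.49% lower. The same 6 genes remained higher in spleen than in bone marrow, where 5.80% of genes were higher and 5.29% lower. Sirpa (0.38, FDR 0.33), Cd300lf (0.60, FDR 0.067), Cd300lb (0.16, FDR 0.63) and Cd33 (0.01, FDR 0.98) did not pass between blood and bone marrow. The 6 genes that passed were also those with more UMIs per cell in blood. A part of the cells lay near the 2% cut, for example 1040 of 3426 in bone marrow of run 2 between 1% and 5%. Between granule-rich and granule-poor cells, cuts at 1% and 5% gave 9 of 9 called as well. The tissue contrasts in granule-poor cells were fitted at the 2% cut only.

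The genes that act with these receptors were read from fixed lists. Of 17 relatives of the families, 15 had a row in the count tables, 5 passed the filter between blood and bone marrow and 3 were higher in blood: Siglecf (log2 fold change 2.88, FDR 0.011), Gm9733, a SIRPβ-like gene next to the cluster (1.24, FDR 0.0085), and Siglece, an inhibitory Siglec of mouse neutrophils (0.84, FDR 0.027). The median of the 5 was 0.84. Of 18 adaptor and signalling genes, all tested, 6 were higher in blood and 0 lower, with a median of 0.58. Over all genes 11.7% were higher and 9.94% lower, with a median of -0.02. The adaptor gene Fyb (1.43, FDR 0.0094), Syk (1.28, FDR 0.0096), Tyrobp, which encodes DAP12 (1.17, FDR 0.015), and the Src-family kinase gene Fgr (1.13, FDR 0.016) had the largest differences.

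Neither list had a call between spleen and bone marrow, where 2.24% of all genes were higher and 0.512% lower, or between spleen and blood, where 0% were higher and 0.0512% lower. In granule-rich cells, Gm9733 (-1.95) and Siglece (-0.52) were lower among 3 relatives tested, and 10 of 18 adaptor and signalling genes were lower, led by Fyb (-1.56), Tyrobp (-1.34), Fgr (-0.98) and Inpp5d, the gene of the phosphatase SHIP-1 (-0.93), where 22.8% of all genes were lower. Cd47, the ligand of SIRPα, was the 1 gene of the list that was higher there (0.65, FDR 0.00048).

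In the inflammation library all 4 inflamed conditions were compared with the same healthy blood pool. Levels in CPM are not compared with those of the healthy libraries above, since the capture chemistry differed, and the ratio of this healthy blood to the mean of the other 2 blood libraries ranged from 0.367 for Sirpb1a to 2.58 for Sirpa. Intervals are exact, at 95%, and cover counting error only. A gene counts as changed here if it differed at least 2-fold with a mean of at least 10 CPM, a description without a test.

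Relative to healthy blood, 0 receptor genes differed 2-fold in arthritic blood, where 1.19% of 5208 genes were higher and 7.43% lower, and 0 in the arthritic joint, where 9.96% of 5209 genes were higher and 21.3% lower. In the peritoneum after IL-1β 6 were lower, against 49.8% of all genes lower and 10.8% higher, and in the lung 6 were lower and 2 higher, against 47.8% lower and 11.1% higher. The share that was lower is thus near the background. The median log2 ratio over all genes was -0.38 in arthritic blood, -0.43 in the joint, -0.997 in the peritoneum and -0.94 in the lung, and that of the receptor genes was -0.16, -0.48, -1.23 and -1.27.

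Cd300lf and Cd33 were the 2 receptor genes that were 2-fold higher in the lung. Cd300lf stood at 693 CPM in healthy blood, 599.6 in arthritic blood, 888 in the joint, 1139 in the peritoneum and 1870.4 in the lung. Cd33 stood at 991 CPM in healthy blood, 921 in arthritic blood, 844 in the joint, 1295 in the peritoneum and 2360.2 in the lung. Both were highest in the lung and next highest in the peritoneum. In the lung Cd300lf was 2.70-fold higher than in healthy blood (2.49 to 2.93) and Cd33 2.38-fold higher (2.22 to 2.55). Relative to the median of all genes their log2 ratios were 2.37 and 2.19, at percentiles 91.8 and 90.9 among genes.

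In the peritoneum Cd300lf was 1.64-fold (1.5 to 1.8) and Cd33 1.31-fold (1.2 to 1.42) the level of healthy blood. Per cell, Cd300lf gave 1.53 UMIs in healthy blood, 3.68 in the peritoneum and 6.50 in the lung, and Cd33 gave 2.19, 4.18 and 8.21. With each cell thinned to 1000 UMIs, 79.0% of lung cells and 46.3% of healthy blood cells held a UMI of Cd300lf (97.6% and 76.0% before thinning), and 85.7% and 59.6% one of Cd33 (98.4% and 81.1%). Cells under 1000 UMIs, 94 in lung and 155 in healthy blood, were left out. The median number of UMIs per cell was 2527 in healthy blood and 3475.5 to 3681 in the inflamed conditions.

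**Figure D3:**
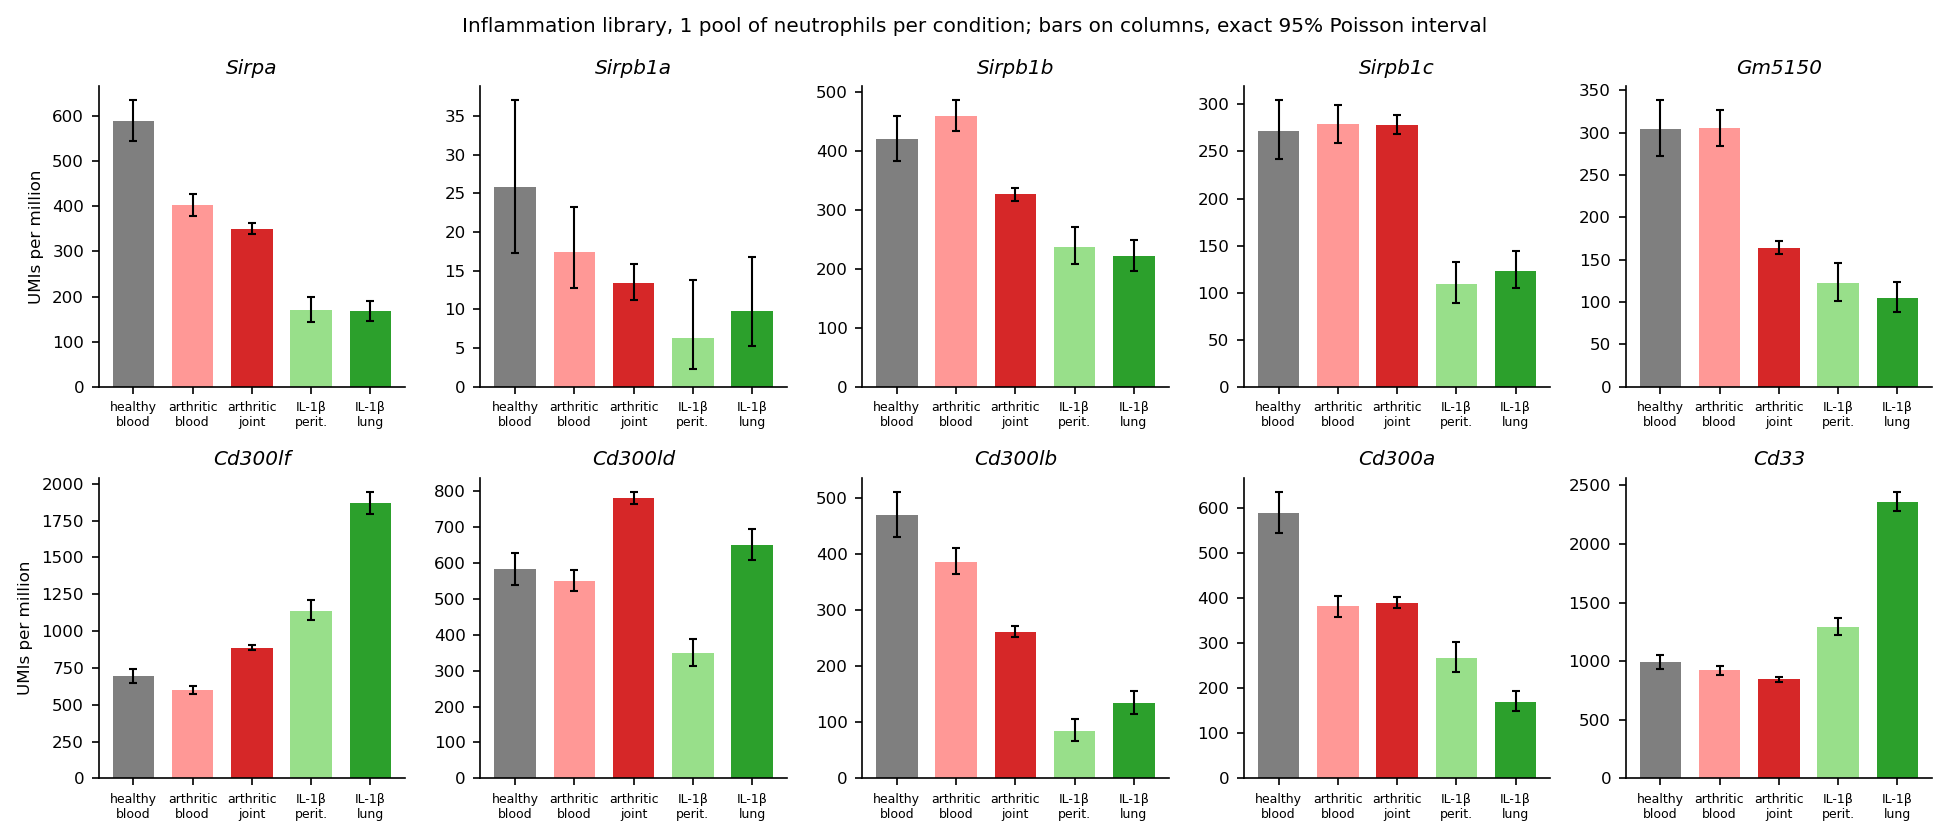
CPM (vertical axis, linear, from 0) of each receptor gene in the 5 conditions of the inflammation library, 1 pool of neutrophils each, with exact 95% Poisson intervals. Cd300lf and Cd33 were highest in the lung, at 1870.4 and 2360.2 CPM, while Cd300lb was lowest in the peritoneum, at 84.9 CPM.

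The other CD300 receptors took different courses. Cd300lb stood at 84.9 CPM in the peritoneum and 134 in the lung against 468 in healthy blood, 5.52-fold (4.36 to 7.07) and 3.50-fold (2.94 to 4.17) lower, with 386 in arthritic blood and 261 in the joint. Cd300a stood at 590.3 CPM in healthy blood, 382 in arthritic blood, 391 in the joint, 268 in the peritoneum and 170.3 in the lung. Cd300ld stood at 582 CPM in healthy blood, 551 in arthritic blood, 781 in the joint, 349 in the peritoneum and 651 in the lung. Cd300ld was highest in the joint, 1.34-fold (1.24 to 1.46) above healthy blood, whereas under TMM scaling, which sets the bulk of genes equal, it was higher in the lung (2.09-fold) than in the joint (1.97-fold). Between lung and peritoneum, Cd300ld differed 1.87-fold and Cd33 1.82-fold, and no receptor gene differed 2-fold, against 10.7% of all genes higher and 9.27% lower.

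As shares of the UMIs of the 4 CD300 genes, which do not depend on scaling, Cd300lf took 29.7% in healthy blood, 31.3% in arthritic blood, 38.2% in the joint, 61.9% (59.5% to 64.2%) in the peritoneum and 66.2% (64.7% to 67.7%) in the lung. Cd300lb took 20.07% in healthy blood, 20.1% in arthritic blood, 11.3% in the joint, 4.61% in the peritoneum and 4.74% in the lung. The inhibitory Cd300lf gave the most CD300 UMIs in each of these 5 pools. The 4 genes together stood at 2334 CPM in healthy blood and at 1842 and 2826 CPM in the peritoneum and lung.

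**Figure D4:**
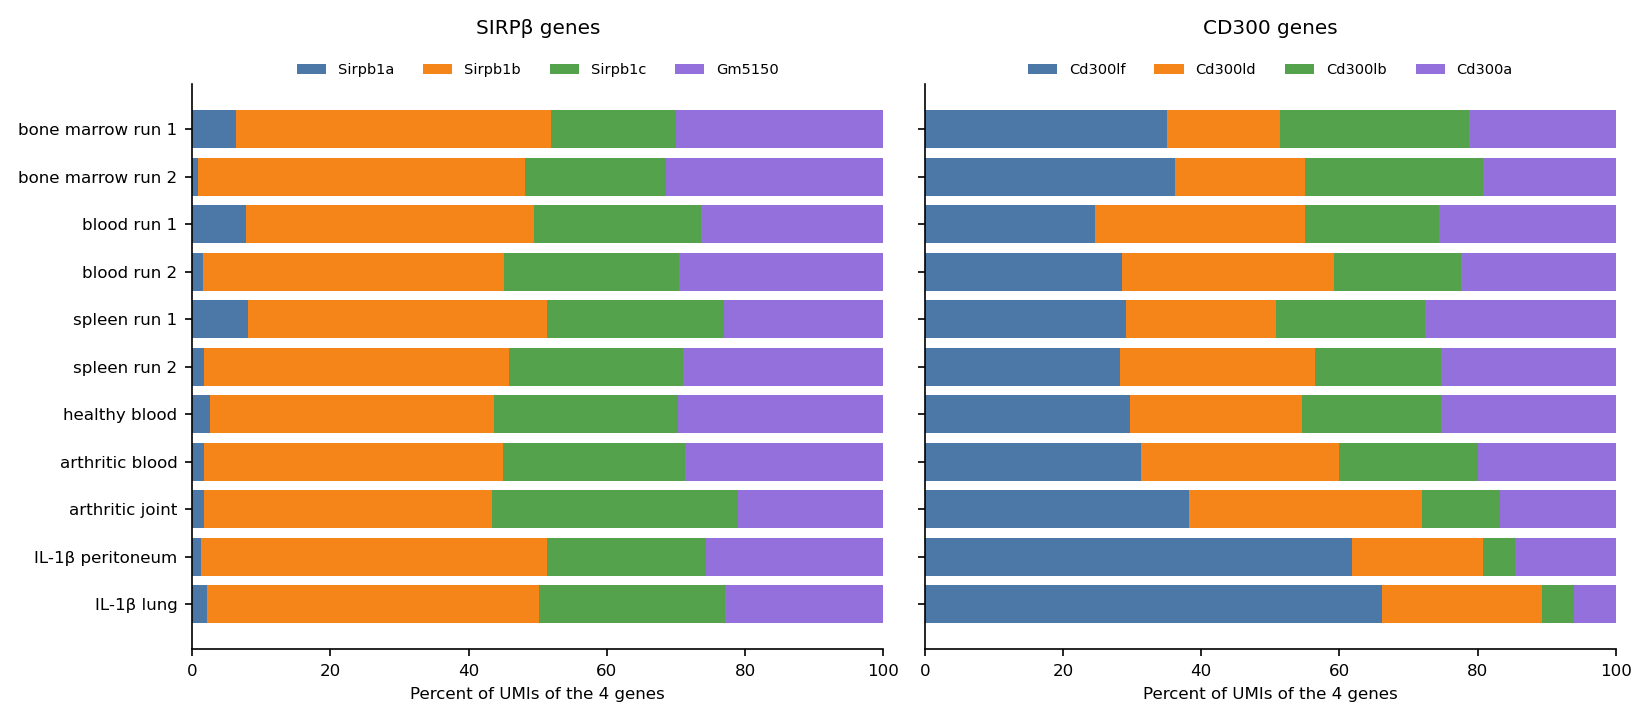
Percent of UMIs (horizontal axis) from each of the 4 SIRPβ genes (left) and each of the 4 CD300 genes (right) in the 6 healthy libraries and the 5 conditions of the inflammation library. Within the inflammation library Cd300lf made up 29.7% in healthy blood and 61.9% and 66.2% in the IL-1β conditions. The healthy libraries, made with another capture chemistry, are drawn beside these pools and, apart from the share of Sirpb1a, not compared with them.

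The SIRP genes were lowest in the IL-1β conditions. Sirpa stood at 589 CPM in healthy blood, 402 in arthritic blood, 351 in the joint, 169.7 in the peritoneum and 167 in the lung, 3.47-fold (2.91 to 4.15) and 3.52-fold (3.02 to 4.12) lower in the latter. Sirpb1b stood at 419.6 CPM in healthy blood, 459 in arthritic blood, 326 in the joint, 238 in the peritoneum and 221 in the lung. Sirpb1b gave 41.1% to 50% of the UMIs of the 4 SIRPβ genes in these 5 pools, whereas the share of Sirpb1c ran from 23.0% in the peritoneum to 35.6% in the joint, and that of Gm5150 from 21.0% in the joint to 29.8% in healthy blood. In the joint Gm5150 stood at 164 CPM against 304 in healthy blood and 305 in arthritic blood, while Sirpb1c stayed between 272 and 278.8 CPM in these pools, each gene being counted as the authors' pipeline divided the UMIs. Sirpb1a stood at 6.36 to 25.8 CPM. The sum of Sirpb1a, Sirpb1b and Sirpb1c, which does not depend on how the counted UMIs were divided among them, was 717 CPM in healthy blood, 755 in arthritic blood, 618 in the joint, 353 in the peritoneum and 354 in the lung. It was 2.03-fold (1.79 to 2.31) lower in the peritoneum and 2.03-fold (1.80 to 2.27) lower in the lung than in healthy blood.

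Scaling changed several of these directions. Under TMM scaling the median of all genes was between -0.09 and 0.13 in the 4 inflamed conditions, and the values of Cd300lf, Cd300ld, Cd300lb and Cd33 in arthritic blood, Sirpb1b and Cd33 in the joint, and Sirpb1b and Cd300ld in the peritoneum turned from lower to higher. No receptor gene changed direction in the lung, where Cd300lf was 5.04-fold, Cd33 4.45-fold and Cd300ld 2.09-fold higher and none was 2-fold lower, against 22.3% of all genes higher and 21.0% lower under this scaling. In the peritoneum Cd300lf (3.09-fold) and Cd33 (2.46-fold) were higher and Sirpb1a (2.15-fold) and Cd300lb (2.93-fold) lower, against 21.8% of all genes higher and 21.5% lower. The summed level of Sirpb1a, Sirpb1b and Sirpb1c was then 1.08-fold lower in both IL-1β conditions.

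Granule-rich cells were 16.8% of peritoneal and 1.32% of lung neutrophils and 0% of the others, and without them 6 receptor genes were again lower in each IL-1β condition and 2 higher in the lung, against 48.5% of all genes lower and 10.9% higher in the peritoneum and 47.8% and 11.1% in the lung. The Adgre1 level of 157 CPM in the peritoneum compared with 23.5 CPM in the lung and 44.4 in healthy blood. Without cells holding 2 or more UMIs of monocyte markers, the lung log2 ratio was 1.59 for Cd300lf (1.43 in all cells) and 1.25 for Cd33 (1.25). In the peritoneum Cd300lf then stood at 1177 CPM against 672 in healthy blood, Cd33 at 1381 against 1024 and Cd300lb at 69.2 against 479.

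In the joint relative to arthritic blood, which came from mice with the same treatment, no receptor gene differed 2-fold, against 12.5% of all genes higher and 7.70% lower. Cd300lf was 1.48-fold (1.40 to 1.56) and Cd300ld 1.42-fold (1.34 to 1.5) higher in the joint. Gm5150 was 1.86-fold (1.71 to 2.02), Cd300lb 1.48-fold (1.37 to 1.59) and Sirpb1b 1.41-fold (1.32 to 1.5) lower. The ratio of joint to arthritic blood was 0.997 for Sirpb1c, 1.02 for Cd300a and 0.916 for Cd33.

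Among the relatives, Siglece stood at 373 CPM in healthy blood, 321 in arthritic blood, 166 in the joint, 985 in the peritoneum and 607 in the lung. It was thus 2.64-fold higher in the peritoneum, and 2.24-fold lower in the joint, than in healthy blood. Gm9733 was 2.05-fold lower in the joint. Under TMM scaling Siglece was 4.96-fold higher in the peritoneum and 1.53-fold lower in the joint, and Gm9733 was 1.40-fold lower in the joint. Of the 4 relatives past the level filter, 3 were 2-fold lower in the joint, against 21.3% of all genes, and 1 was higher and 1 lower in the peritoneum, against 10.8% and 49.8%. Under TMM scaling 1 was higher and 1 lower in the joint, and 1 was higher and 0 lower in the peritoneum.

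Of the 18 adaptor and signalling genes, 0 differed 2-fold in arthritic blood, 2 were lower in the joint, 2 were higher and 4 lower in the peritoneum, and 1 was higher and 4 were lower in the lung. Over all genes 1.19% were higher and 7.43% lower in arthritic blood, 9.96% and 21.3% in the joint, 10.8% and 49.8% in the peritoneum and 11.1% and 47.8% in the lung. Under TMM scaling the counts were 2 higher and 0 lower in the joint (932 and 316 of all 5209 genes), 9 and 0 in the peritoneum (21.8% and 21.5% of all genes) and 6 and 2 in the lung (22.3% and 21.0%), so that the split depends on the scaling. Cd47 stood at 369.8 CPM in healthy blood, 1042 in the peritoneum and 1453 in the lung, 2.82-fold and 3.93-fold higher, whereas Sirpa, the gene of its receptor, was lower in both. Under TMM scaling Cd47 was 5.30-fold and 7.34-fold higher and Sirpa 1.84-fold and 1.88-fold lower in the peritoneum and lung. The kinase gene Csk was 3.82-fold, Fyb 3.24-fold and the phospholipase gene Plcg2 8.06-fold lower in the lung, Plcg2 at 11.4 CPM against 91.6. Under TMM scaling these were 2.04-fold, 1.73-fold and 4.32-fold lower. Tyrobp stood at 8508 CPM in healthy blood and at 4824 and 4782 CPM in the peritoneum and lung, but under TMM scaling it was 1.07-fold and 1.05-fold higher there.

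To name the genes whose pattern was most like that of a receptor, levels in the 11 pools were correlated as log2(CPM + 10), centred within each run and within the inflammation library, over 2045 genes of at least 50 CPM. Pools of a run or library share capture and depth, and these r values describe the 11 pools only. Sirpb1b was most like Pla2g7 (r = 0.995), Sirpb1c (0.988) and Gm5150 (0.987), and Sirpb1c was also most like Pla2g7 (0.991). Gm5150 was most like Selplg (0.994), Cd300a like Ctsa (0.995) and Sirpa like Ctdsp2 (0.990). Cd300lf was most like Trpv2 (0.991), Cd33 like Napsa (0.980), Cd300ld like Txnip (0.981) and Sirpb1a like Fau (0.979). Between receptor genes, Cd300lf and Cd33 had r = 0.923 and Sirpa and Cd300lb 0.965, whereas Sirpa and Cd33 had -0.119.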

How the data were processed

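The deposited tables hold UMI counts per gene and cell, which the authors made with Cell Ranger on mm10, before their cell filters. The inflammation counts cover cells that the authors called hashtag singlets, with their condition and ImmGen label in a second table. Healthy cells with at least 3% of UMIs from S100a8 and S100a9, and inflammation cells with a granulocyte label, were kept, with no doublet caller run here. Their counts were summed per library and tested with edgeR 4.0.16 (TMM, quasi-likelihood, run as block, Benjamini-Hochberg FDR over all genes), leaving 2 residual degrees of freedom. Granule classes were tested over 6 libraries, from 2 sets of pooled mice, with library as block. Runs pair the tissues, since within a run all tissues were taken from 1 set of mice, and deviations correlated at 0.542 to 0.640. Poisson and binomial intervals are exact. The members and lists were chosen with earlier results of these data known. All 10 members were named, and of each list up to 4 genes per contrast with the largest change past FDR 0.05, or past 50 CPM in the inflammation library. In counts simulated for blood against bone marrow (7809 genes), 74.2% of 4-fold and 9.68% of 2-fold changes were found, and a missing call does not show equal levels. DESeq2 1.42.0, other size factors, filters, cell choices and left-out libraries were alternatives. The gene most like Cd300lb is not reported here.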

Additional observations from a re-analysis of the deposited data

Results flagged for a closer look

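The 3 receptor genes below moved in opposite directions in 2 inflamed conditions relative to the same healthy blood pool, with 1 pool per condition, and the differences were not tested. Cd300lf had a log2 ratio of 1.43 in the lung after IL-1β and of -0.21 in arthritic blood. Cd300ld had a log2 ratio of 0.42 in the arthritic joint and of -0.74 in the peritoneum after IL-1β. Cd33 had a log2 ratio of 1.25 in the lung and of -0.23 in the joint. Under TMM scaling all 6 values were above 0, at 2.33 and 0.25 for Cd300lf, 0.98 and 0.17 for Cd300ld, and 2.15 and 0.32 for Cd33, so that the opposite signs depend on the scaling and the order of the 2 conditions does not.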

How the results depend on the processing

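With 1 library left out at a time, genes called ranged from 0 to 2626 (receptor genes 0 to 10) between blood and bone marrow, 0 to 1250 (0 to 8) between spleen and bone marrow, 0 to 245 (0 to 1) between spleen and blood, and 1943 to 2504 (9 to 10) between granule classes. Blood against bone marrow fell to 57 without blood of run 1 and to 0 without blood of run 2, with 996 and 6 receptor genes without bone marrow of run 2, and rose to 2626 and 10 without spleen of run 1. Without the replicate block, blood against bone marrow gave 164 genes and 2 receptor genes, and spleen against bone marrow 0 and 0, spleen against blood 0. DESeq2 gave 1093 and 29 genes for blood against bone marrow and spleen against blood. In granule-poor cells the tissue contrasts with bone marrow gave 838 and 673 genes. Without cells with monocyte UMIs, spleen gave 902 against bone marrow and 19 against blood. That setting kept 290 of 1206 and 1498 of 3426 bone marrow neutrophils in runs 1 and 2. In blood it kept 1141 of 1306 and 3525 of 3672. It thus removed unequal parts of the tissues, and whether the cells left out were monocytes was not tested. With the stricter cell filter, spleen gave 115 against bone marrow, where Cd300ld and Cd300a no longer passed. Spleen against blood gave 18 with no filter and 19 with S100 genes at 10%, a setting in which Cd300a was lost against bone marrow. Values that changed sign lay near 0 in the alternative setting but mostly not in the main fit. They were Cd33 (-0.0053 in blood and -0.14 in spleen relative to bone marrow without monocyte-UMI cells, and -0.0713 in spleen relative to bone marrow in granule-poor cells), and in spleen relative to blood Sirpb1a (0.0682 and 0.15), Sirpb1c (0.0011 and 0.0935) and Cd300a (0.0968 and 0.19) in these 2 settings and Sirpb1b (0.0975) in granule-poor cells. In the main fit Cd33 had 0.60 in blood and 0.30 in spleen relative to bone marrow. In spleen relative to blood the main values were -0.64 for Sirpb1a, -0.63 for Sirpb1c, -0.41 for Cd300a and -0.62 for Sirpb1b. Inside the inflammation library, TMM scaling gave 292 genes in arthritic blood and 3 receptor genes in the lung, and equal weight per cell 684 genes in arthritic blood. No filter gave 4339, 7431, 7631 and 7714 genes in arthritic blood, joint, peritoneum and lung, 4432 between lung and peritoneum and 5816 between joint and arthritic blood. Sirpb1a was the 1 receptor gene past 2-fold in the joint without monocyte-UMI cells (1) and with equal weight (1), and between lung and peritoneum without monocyte-UMI cells (1). With equal weight 2 passed there, Sirpb1a and Cd300a. Of 579 other log2 fold changes, 508 kept their call and direction, 57 lost it, 4 gained it and 10 changed sign. Of 420 log2 ratios, 366 stayed within their counting interval and 54 moved. The causes were not tested. Leaving out cells with monocyte UMIs other than Ly6c2 and Csf1r was chosen after seeing the data and changed no call of a receptor gene. With 2 libraries per tissue, or 1 pool per condition, small changes were not detectable.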

Other observations

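Within the lung, the 2 main ImmGen labels of the cells differed in Cd300lf and Cd33. Cells labelled GN.Thio.PC (74 cells) held Cd300lf at 4034 CPM (3628 to 4473) and Cd33 at 4068 CPM (3660 to 4508), and those labelled GN.Arth.SynF (275 cells) at 1679 CPM (1604 to 1756) and 2213 CPM (2127 to 2301). Cd300ld had the other order, at 347 CPM (236 to 493) and 699 CPM (651 to 749). Per cell the order of Cd300lf and Cd33 was reversed, since cells labelled GN.Thio.PC held 1206 UMIs of all genes per cell against 4126, and gave 4.86 UMIs of Cd300lf against 6.93 and 4.91 of Cd33 against 9.13. In the peritoneum Cd300lf stood at 1243 CPM in cells labelled GN.Thio.PC (163 cells) and at 957 CPM in those labelled GN.Arth.SynF, and Cd33 at 1226 and 1281 CPM. Cells labelled GN.UrAc.PC in healthy and arthritic blood, with 660 and 684 UMIs of all genes per cell, held Cd300lf at 1810 CPM in healthy blood and 1405 CPM in arthritic blood, against 584 and 581 CPM in cells labelled GN.Bl, and Cd33 at 1556 and 2197 CPM against 937 and 888. Per cell this order was reversed too, at 1.19 and 0.962 UMIs of Cd300lf against 1.68 and 2.19, and 1.03 and 1.50 UMIs of Cd33 against 2.70 and 3.35. In the joint the same labels stood at 946 and 971 CPM for Cd33 and at 1156 and 678 CPM for Cd300lf. Per cell the order of Cd300lf was not reversed there, at 2.93 against 2.45 UMIs, and Cd33 gave 2.40 against 3.51. The labels were set by the authors from the same counts, so that these values are a description.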
